A study of Homo sapiens with 6 samples.

Results

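Small nucleolar RNAs (snoRNAs) were read on 6 whole-transcript arrays of H661 cells, and 192 of the 18404 genes on the array belonged to them. The members were chosen by name alone. A probe set was taken where the platform gave it exactly 1 symbol and that symbol began with SNORD, SNORA or SCARNA followed by a digit, and the brightest probe set stood for a gene with several. The 192 genes comprised 115 of the C/D box family (SNORD), 61 of the H/ACA box family (SNORA) and 16 of the Cajal body family (SCARNA), and all of them matched a RefSeq symbol. H661 is an established line of human large cell lung carcinoma with high SALL4, a zinc finger transcription factor of stem cells and embryos. The cells had received a lentiviral short hairpin RNA directed at SALL4 (SALL4-sh, 3 arrays) or a lentiviral scrambled hairpin (Scr-sh, 3 arrays), so both groups carried a virus and a hairpin. A single SALL4 hairpin was named, and the time between transduction and RNA collection was not given in the sources used here. Whether the replicates were grown apart is stated nowhere in the labels, and the p-values below cover only the variation among these 6 samples, part or all of which could be technical.

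The snoRNAs are short RNAs that guide enzymes to other RNAs in the nucleolus. C/D box snoRNAs pair with ribosomal RNA and place a methyl group through the enzyme fibrillarin, and H/ACA box snoRNAs guide the conversion of uridine to pseudouridine through dyskerin. A few members of either family take part in cutting the ribosomal RNA precursor, and the Cajal body RNAs guide the same modifications on spliceosomal RNAs. In human cells most snoRNAs are cut out of the introns of a longer host transcript, often that of a ribosomal protein or a translation factor. Their level therefore depends both on the transcription of the host and on the proteins that assemble, trim and protect the released RNA.

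The lowest value on each array was an intensity of 8, or 3 on the log2 scale, and this floor held between 38.8% and 40.4% of all probe sets on an array. Values at the floor have no order, so a gene held there carries no information on a difference. Among all 18404 genes 21.2% were at the floor on all 6 arrays, against 35.4% of the snoRNA genes (68 of 192). Another 58 snoRNA genes were at the floor on 1 to 5 arrays, and 66 were above it on all 6. The targeted gene was lower, as its label states. SALL4 had intensities of 33.6, 31.9 and 26.5 on the SALL4-sh arrays, against 126, 104 and 130 on the Scr-sh arrays, a log2 fold change of -1.97 (SE 0.14, limma adjusted p = 0.0159). Of the 6 epithelial markers, EPCAM was bright on every array (843 to 1113 in SALL4-sh cells and 590 to 898 in Scr-sh cells), whereas the keratin gene KRT8 stayed below 12 throughout. CDH1, another epithelial marker, had 17.2, 16.1 and 17.3 in SALL4-sh cells against 10.5, 8 and 8.68 in Scr-sh cells (limma adjusted p = 0.0456). The keratin genes KRT18, KRT19 and KRT7 had log2 fold changes of -0.44 (SE 0.37), -0.11 (SE 0.18) and 0.08 (SE 0.08), and none was called. The blood cell markers PTPRC and CD3E and the endothelial markers PECAM1, CDH5 and VWF were at the floor on all 6 arrays. The blood cell marker CD68 (30.5 to 71.6) and the fibroblast markers COL3A1 (77.1 to 113) and COL1A1 (33.5 to 51.0) were above it on all arrays. COL1A1 was lower in SALL4-sh cells (limma adjusted p = 0.0387, and 0.0735 after the filter on low genes described below). COL3A1 had a positive log2 fold change of 0.24 (SE 0.12) and was not called. CD14, ITGAM and PDGFRB stayed below 12.

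In bulk RNA, fewer cells with a transcript and less of it per cell cannot be told apart. Which snoRNA genes could be seen at all differed between families and between gene clusters. In the C/D box family 47 of 115 genes (40.9%) were at the floor on all 6 arrays, in the H/ACA box family 16 of 61 (26.2%) and in the Cajal body family 5 of 16 (31.2%). Of these 47 C/D box genes, 36 came from 2 imprinted loci, where long arrays of near-identical snoRNA copies are expressed from 1 parental chromosome. All 20 SNORD115 copies on chromosome 15 and all 6 SNORD113 and SNORD114 copies on chromosome 14 were at the floor on all 6 arrays, and so were the 6 further SNORD115 probe sets that carry several symbols. In contrast, only 10 of the 20 SNORD116 copies, which lie in the same host transcript SNHG14 as SNORD115 and are deleted in Prader-Willi syndrome, were at the floor throughout. Of the C/D box genes outside the SNORD113 to SNORD116 groups, 15.9% were at the floor on all 6 arrays. The median annotated length was 81 bases for the C/D box genes, 134 for the H/ACA box genes and 226.5 for the Cajal body genes.

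The brightest member of each family had every SALL4-sh array above every Scr-sh array. SCARNA9, a Cajal body RNA within CEP295, had intensities of 963, 943 and 1009 in SALL4-sh cells, against 625, 830 and 892 in Scr-sh cells. SNORD81, a C/D box snoRNA within the noncoding gene GAS5, had 609, 646 and 767 against 549, 563 and 586. SNORA5A, an H/ACA box snoRNA within TBRG4, had 206, 171 and 239 against 97, 131 and 155. The groups overlapped for SNORA80E, an H/ACA box gene nearly as bright as SNORA5A that was picked after its values were seen. The log2 fold changes were 0.33 (SE 0.15) for SCARNA9, 0.25 (SE 0.10) for SNORD81 and 0.70 (SE 0.23) for SNORA5A. SCARNA9 had 2 probe sets, of which the brighter is given here, and the mean of both gave 0.056. Without Scr-sh 1 the values were 0.18 for SCARNA9, 0.22 for SNORD81 and 0.51 for SNORA5A. None of the 3 passed the threshold over all genes, with limma adjusted p-values of 0.395, 0.324 and 0.238 in that order.

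Next, the effect of the SALL4 hairpin on all snoRNA genes was examined. None of the 192 snoRNA genes passed an adjusted p of 0.05 in the limma fit over all 18404 genes, where 2.51% of genes did, with 1.18% higher (218) and 1.33% lower (244) in SALL4-sh cells. The lowest adjusted p of any member was 0.128. At an unadjusted p under 0.05, 8 members were higher and 1 was lower (4.69% of the 192), against 17.4% of all genes, of which 9.55% were higher and 7.87% lower. Among the other fits with all 6 arrays and no block, the one-way ANOVA that the study names included, none called a member except the one with a filter on low genes. After leaving out genes whose mean was under the 25th percentile, 113 members and 13803 genes remained, and 2 members passed as higher, both of the C/D box family, SNORD117 and SNORD45B. Of all genes 11.5% passed there, 5.95% higher and 5.54% lower, and no member was called lower. The members were also at the floor more often than all genes and, as given below, more variable between arrays, and the part of either in these shares was not tested.

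The median log2 fold change was 0.00 for the C/D box genes, 0.00 for the H/ACA box genes and 0.03 for the Cajal body genes, beside 0.00 for all genes, since many genes in each set were at the floor. Among the 66 members above the floor on all 6 arrays, the median was 0.15 (42 positive and 24 negative), beside 0.02 for the 12057 genes of that kind on the array. By family it was 0.26 for 34 C/D box genes (23 positive), 0.06 for 24 H/ACA box genes (13 positive) and 0.18 for 8 Cajal body genes (6 positive). These medians turned on 1 control array. Without Scr-sh 1 the median of the 66 members was -0.01 with 33 positive, that of the C/D box genes -0.08 with 15 of 34 positive, that of the H/ACA box genes 0.00 with 12 of 24 positive, and that of the Cajal body genes 0.13 with 6 of 8 positive.

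**Figure D1:**
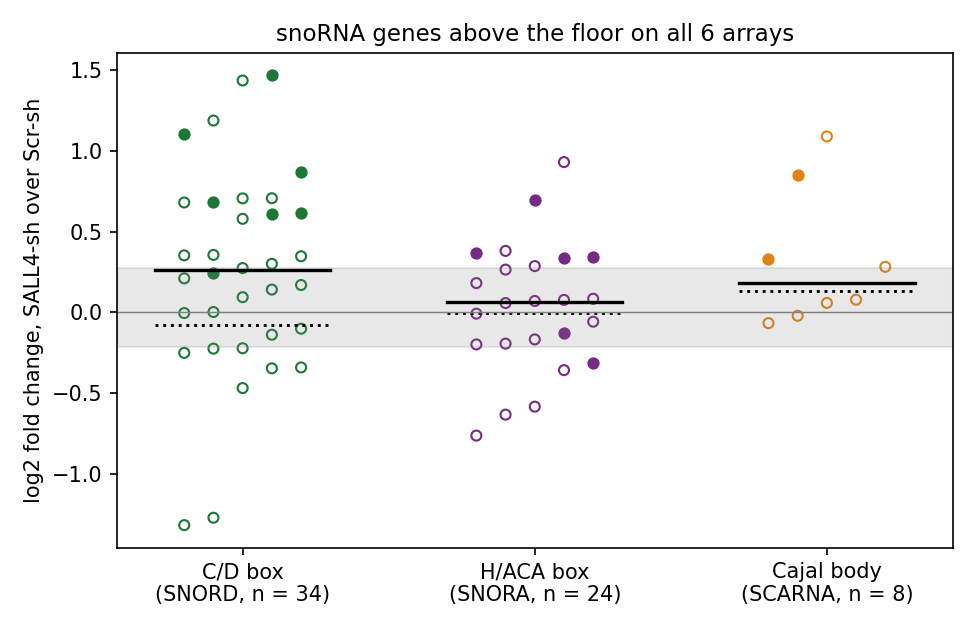
Log2 fold change (SALL4-sh over Scr-sh, vertical axis) of each snoRNA gene above the floor on all 6 arrays, by family. Filled points are genes whose groups did not overlap, solid bars are the family medians (0.26, 0.06 and 0.18), dotted bars the medians without Scr-sh 1 (-0.08, 0.00 and 0.13), and the grey band runs from the lower to the upper quartile of all 12057 genes above the floor. The C/D box points spread widest, between -1.32 and 1.47.

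This array was the lowest of the 6 for a large share of the snoRNAs. Scr-sh 1 gave the lowest value for 26 of the 66 members above the floor (39.4%), and for 18 of the 34 C/D box genes (52.9%), 5 of the 8 Cajal body genes and 3 of the 24 H/ACA box genes. Over all genes above the floor it was the lowest for 19.1%. The median deviation of the C/D box genes from their own means was -0.66 on Scr-sh 1, and between -0.07 and 0.26 on the other 5 arrays. For H/ACA box genes it was -0.09 on Scr-sh 1, and for all genes no array deviated by more than 0.03. The same array was also low for RMRP, the RNA of the RNase MRP enzyme that cuts ribosomal RNA precursors, with 351, 364 and 326 in SALL4-sh cells and 223, 447 and 567 in Scr-sh cells. RPPH1, the RNA of RNase P, had 386, 365 and 291 in SALL4-sh cells and 260, 409 and 427 in Scr-sh cells. Values without this array are given below beside some of the results.

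**Figure D2:**
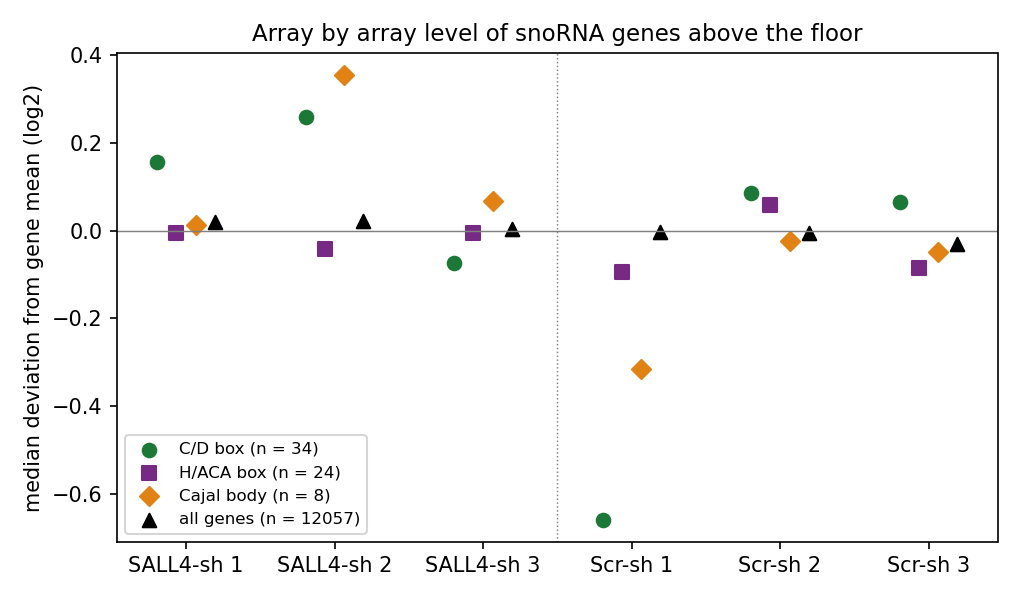
Median deviation of the snoRNA genes from their own mean over 6 arrays (log2, vertical axis) on each array (horizontal axis), for the genes above the floor on all 6. The C/D box median is -0.66 and the Cajal body median -0.32 on Scr-sh 1, whereas all genes (triangles) stay within 0.03 of 0 on every array.

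The snoRNAs also varied more between arrays of 1 group than other genes of like intensity. The median within-group SD of the 66 members was 0.53 on the log2 scale, with 0.67 for C/D box genes, 0.35 for H/ACA box genes and 0.45 for Cajal body genes. Set against all genes within 0.5 log2 units of its own mean, the median member had an SD larger than that of 95.7% of them, and 39 of the 66 members lay above the 90th percentile. For genes with a mean log2 intensity between 5 and 6, the median SD was 0.71 for 15 members and 0.29 for all 2315 genes. Leaving out Scr-sh 1, these were 0.57 and 0.27. Between 7 and 10, the median SD was 0.64 for 10 members against 0.20 for all genes, and 0.25 against 0.18 without Scr-sh 1. The 95% interval of the fold change stayed within a 2-fold change in either direction for 20 of the 66 members (30.3%), and for 4 of 34 C/D box genes, 13 of 24 H/ACA box genes and 3 of 8 Cajal body genes. For all genes above the floor this share was 67.0%. The interval of the other 30 C/D box genes thus reached beyond a 2-fold change in at least 1 direction.

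**Figure D3:**
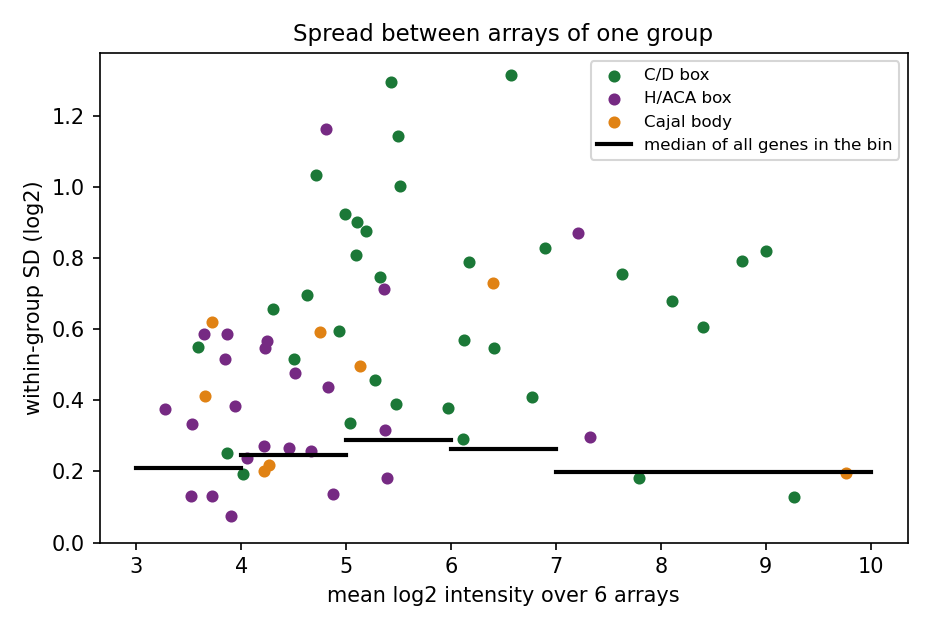
Within-group SD of log2 intensity (vertical axis) against mean log2 intensity over the 6 arrays (horizontal axis) for the 66 snoRNA genes above the floor on all arrays, with the median SD of all genes in 5 intensity bins as black bars. Most C/D box points lie above the bars, for example a median of 0.71 for members against 0.29 for all genes between 5 and 6.

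In spite of this spread, the groups did not overlap for 19 members, 15 of which were higher and 4 lower in SALL4-sh cells. These made up 15.3% of the 124 members that were not at the floor throughout, below the 27.5% of all such genes. The 15 comprised 9 C/D box, 4 H/ACA box and 2 Cajal body genes, and the 4 comprised 2 of each of the first families. With 3 arrays against 3, an exact two-sided permutation test cannot go below p = 0.10, which each of the 19 reached.

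SNORD117 had the largest log2 fold change among the members whose groups did not overlap. This C/D box snoRNA on chromosome 6 lies within DDX39B, which codes for an RNA helicase of mRNA export. Its intensities were 78.9, 29.5 and 56.2 in SALL4-sh cells, against 17.7, 25.2 and 13.9 in Scr-sh cells, so that the lowest SALL4-sh array lay just above the highest Scr-sh array. The log2 fold change was 1.47 (SE 0.46, 95% interval 0.23 to 2.70), with a limma adjusted p of 0.217 over all genes and 0.0273 after the filter on low genes. The SE and interval are those of the fit over all genes, and in the filtered fit the SE was 0.35. There limma drew the variance of each gene more strongly toward that of other genes (prior degrees of freedom 5.33, against 0.42 over all genes). Leaving out any single array kept the log2 fold change between 1.15 and 1.86.

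SNORD45B was the other member called after the filter. It was at the floor on all 3 Scr-sh arrays and had intensities of 10.6, 19.7 and 17.0 in SALL4-sh cells. Its level was thus at least 1.90-fold higher there (log2 0.93, limma adjusted p = 0.175 over all genes and 0.0307 after the filter). Only the SALL4-sh arrays lifted the mean of SNORD45B above the floor, so its passing the filter was tied to the difference tested. The SD of its Scr-sh values was 0 because of the floor, so their spread was not measured. The call of SNORD45B after the filter carries both limits. Its host RABGGTB, a subunit of the enzyme that attaches lipid anchors to Rab proteins, was higher in SALL4-sh cells, with 653, 752 and 625 against 352, 386 and 388 (log2 fold change 0.85, limma adjusted p = 0.0318). The other 2 snoRNAs of the same host did not separate. SNORD45A had 35.3, 35.1 and 19.9 in SALL4-sh cells against 9.16, 23.2 and 62.3 in Scr-sh cells, and SNORD45C was at the floor on 5 of the 6 arrays.

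These 2 calls were themselves sensitive to single arrays. With the filter and 1 array left out, between 1 and 7 members passed. The same fits called 5.11% to 14.1% of all genes, with 14.1% where 7 of 111 members passed. SNORD117 remained without SALL4-sh 2 or Scr-sh 2, and SNORD45B remained without SALL4-sh 1 or Scr-sh 2, whereas neither passed without SALL4-sh 3, Scr-sh 1 or Scr-sh 3. Without Scr-sh 1 the only call was SNORA70G, an H/ACA box gene within RAP1B, as lower. Its intensities were 8.98, 10.7 and 14.5 in SALL4-sh cells, against 10.9, 20.5 and 30.7 in Scr-sh cells. Its log2 fold change was -0.76 (SE 0.46) over all 6 arrays and -1.16 without Scr-sh 1.

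Of the SNORD116 copies, 5 were above the floor on all 6 arrays. SNORD116-15 had intensities of 267, 278 and 277 in SALL4-sh cells, against 190, 147 and 207 in Scr-sh cells, a log2 fold change of 0.61 (SE 0.14) with a limma adjusted p of 0.128 over all genes and 0.0541 after the filter. This was the lowest adjusted p of any member over all genes, and the log2 fold change was 0.65 without Scr-sh 1. SNORD116-21 had 39.8, 40.2 and 45.2 against 32.7, 17.9 and 29.8 (0.68, SE 0.26, limma adjusted p = 0.300), also with no overlap between the groups. SNORD116-20 had 95.5, 68.9 and 77.8 against 35.8, 69.4 and 47.4 (0.71, SE 0.29), where 1 Scr-sh array reached into the SALL4-sh range. The remaining 2 copies above the floor on all arrays overlapped widely, with log2 fold changes of 0.35 (SE 0.72) for SNORD116-6 and 0.09 (SE 0.44) for SNORD116-14. Without Scr-sh 1 these were 0.48 for SNORD116-20, -0.14 for SNORD116-6 and -0.08 for SNORD116-14.

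All 5 SNORD116 copies above the floor thus had a positive log2 fold change, with a median of 0.61. The 5 copies at the floor on 1 to 5 arrays ranged from -0.45 to 0.84. Without Scr-sh 1 the median was 0.48 and 3 of 5 were positive. Another 8 probe sets of the same locus carry several symbols of SNORD116 copies or of the neighbouring SNORD64 and SNORD109 genes. All 8 had a positive log2 fold change, between 0.08 and 1.21. The groups did not overlap for 3 of the 8, beside 25.3% of all probe sets that were not at the floor throughout. Without Scr-sh 1, 6 of the 8 were positive, and the lowest was -0.32. The probe set shared by SNORD116-6 and SNORD116-2 had 49.1, 60.7 and 50.3 in SALL4-sh cells, against 29.0, 30.2 and 33.8 in Scr-sh cells (log2 fold change 0.78, SE 0.11), which was the lowest limma adjusted p among such shared probe sets, 0.0781 over all 32321 probe sets. The copies are nearly identical in sequence, and a probe set may read several of them, so these values are not separate measurements of separate genes.

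GAS5 is a noncoding gene, known for its accumulation in growth-arrested cells, whose introns hold a row of C/D box snoRNAs, and 7 of these were members. SNORD79 had 58.8, 48.9 and 75.5 in SALL4-sh cells, against 22.9, 39 and 39.7 in Scr-sh cells, a log2 fold change of 0.87 (SE 0.30, limma adjusted p = 0.257 over all genes and 0.0578 after the filter). SNORD78 had 71.5, 152 and 154 against 22.2, 48.6 and 78.3 (1.44, SE 0.61), and the highest Scr-sh array passed the lowest SALL4-sh array. Without Scr-sh 1 the log2 fold changes were 0.61 for SNORD79 and 0.94 for SNORD78. SNORD81, given above, was also free of overlap.

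The other GAS5 snoRNAs were not free of overlap. SNORD44 had 48.6, 49.7 and 26.2 in SALL4-sh cells, against 20.7, 42.1 and 73.7 in Scr-sh cells, and its log2 fold change was 0.00 (SE 0.58). SNORD74 had a log2 fold change of 0.03 (SE 0.86), and SNORD77 was at the floor on all 6 arrays. SNORD75 had a log2 fold change of -0.91 (SE 0.99), which came from 69.4 on Scr-sh 1 against values of 8 to 11.1 on the other 5 arrays. Here Scr-sh 1 was the highest array, and without it the log2 fold change was 0.12. The probe sets that GAS5 shares with SNORD47, SNORD80 and SNORD76 gave log2 fold changes of 0.18 (SE 0.26), -0.32 (SE 0.34) and -0.03 (SE 0.22), so the snoRNAs of this host had values on both sides of 0.

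**Figure D4:**
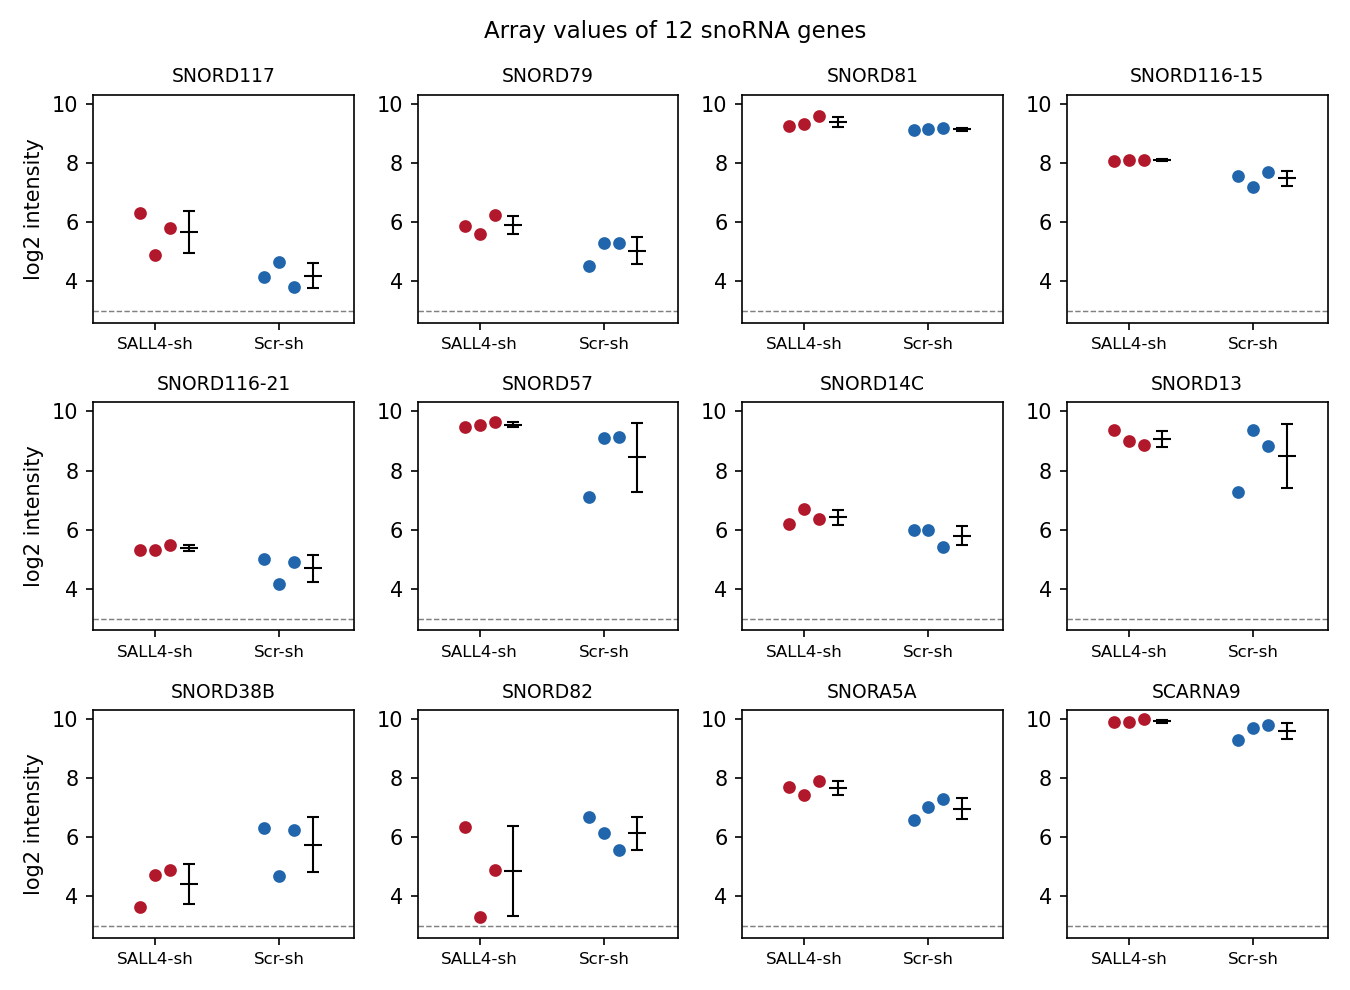
Log2 intensity (vertical axes) of 12 snoRNA genes on the 3 SALL4-sh arrays (red, left) and the 3 Scr-sh arrays (blue, right), with the mean and SD of each group in black and the floor of 3 as a dashed line. SNORD57 and SNORD13 show 1 Scr-sh array far below the other 2, whereas SNORD116-15 and SNORD81 separate with little spread.

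SNORD57, a C/D box snoRNA in an intron of NOP56, was among the brightest members, and its difference rested largely on 1 array. NOP56 codes for a core protein of the C/D box particles themselves. The intensities of SNORD57 were 705, 748 and 796 in SALL4-sh cells, against 138, 549 and 557 in Scr-sh cells. The groups did not overlap and the log2 fold change was 1.10 (SE 0.64, limma adjusted p = 0.515), which was 0.44 without Scr-sh 1. SNORA51, an H/ACA box snoRNA in the same host, had 11.5, 13.3 and 14.0 against 11.03, 10.1 and 9.40 (0.34, SE 0.10, limma adjusted p = 0.196). The probe set that NOP56 shares with SNORD56 had 17.6, 19.4 and 18.6 against 11.1, 13.6 and 9.65 (0.71, SE 0.14, limma adjusted p = 0.139 over all probe sets).

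The snoRNAs that act in cutting the ribosomal RNA precursor were represented by 4 members. SNORD13, the U13 snoRNA, which is transcribed from a gene of its own and helps to make the small subunit RNA, had 656, 507 and 462 in SALL4-sh cells, against 154, 662 and 451 in Scr-sh cells. Its log2 fold change was 0.58 (SE 0.61), and -0.03 without Scr-sh 1. SNORD14C, a U14 snoRNA needed for small subunit RNA in yeast and located in HSPA8, the constitutive HSP70 chaperone, had 73.7, 104 and 82.1 against 64.2, 63.2 and 43.1 with no overlap (0.61, SE 0.23, limma adjusted p = 0.279). SNORD14E of the same host had 36.4, 8.33 and 12.1 against 33.1, 8 and 17.2 (-0.10, SE 0.83). SNORA62 in RPSA was at the floor on 4 arrays and reached 9.14 on 1 SALL4-sh array and 13.4 on 1 Scr-sh array. The U3 snoRNA, the most abundant of this kind, was read by a probe set that carries 5 SNORD3 symbols, with 120, 80.3 and 81.3 in SALL4-sh cells and 58.8, 79.4 and 76.6 in Scr-sh cells (log2 fold change 0.37, SE 0.22). The groups of U3 did not overlap, but the margin between them was 80.3 against 79.4.

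The groups did not overlap with lower values in SALL4-sh cells for 4 members. Of these, SNORD13P2, a pseudogene copy of U13 within FOXK1, had the most negative log2 fold change, with 14.9, 8 and 15 in SALL4-sh cells, against 15.7, 42.5 and 17.5 in Scr-sh cells (-0.90, SE 0.52, limma adjusted p = 0.514). SNORA55, an H/ACA box snoRNA within PABPC4, had 10.4, 13.2 and 12.1 against 14.3, 14.8 and 15.1 (-0.32, SE 0.10, limma adjusted p = 0.225). SNORA5C in TBRG4 had 15.1, 13.2 and 14.5 against 15.5, 16.1 and 15.2 (-0.13, SE 0.06), the opposite sign of SNORA5A in the same host, and SNORA5B of that host had 0.02 (SE 0.12). SNORD12C in ZFAS1 was at the floor on all 3 SALL4-sh arrays and had 8.02, 9.34 and 13.5 in Scr-sh cells, and it is named after its values were seen.

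The 2 most negative log2 fold changes of all members came with overlap. SNORD38B, a C/D box snoRNA, had 12.6, 26.4 and 29.96 in SALL4-sh cells, against 79, 25.7 and 76.6 in Scr-sh cells (-1.32, SE 0.63, 95% interval -2.996 to 0.36). SNORD82 in NCL, which codes for the nucleolar protein nucleolin, had 81.5, 9.98 and 30.1 against 103, 71.1 and 47.1 (-1.27, SE 0.89). At the other end SNORD41 in TNPO2, named after its values were seen, had the largest log2 fold change of all members, 1.61 (SE 0.97), with 113, 49.97 and 17.4 in SALL4-sh cells and 36.2, 12 and 8 in Scr-sh cells. The groups overlapped for these 3 genes, and none of them was called with all 6 arrays and no block. With the filter, SNORD82 passed as lower without SALL4-sh 1, SNORD38B passed as lower without Scr-sh 2, and SNORD41 passed as higher with the replicate number as a block.

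No Cajal body gene was called with all 6 arrays and no block, before or after the filter. Besides SCARNA9, the groups did not overlap for SCARNA5 in ATG16L1, an autophagy gene, with 28.8, 28.8 and 56.6 in SALL4-sh cells and 12.2, 27.1 and 24.1 in Scr-sh cells (log2 fold change 0.85, SE 0.46, limma adjusted p = 0.479). SCARNA9L, a copy of SCARNA9 on the X chromosome that was picked after its values were seen, had 102, 127 and 145 against 28.2, 112 and 61.6 (1.09, SE 0.57), where 1 Scr-sh array lay within the SALL4-sh range. With the filter it passed as higher without Scr-sh 2 and with the replicate number as a block. Without Scr-sh 1 the log2 fold changes were 0.50 for SCARNA5 and 0.57 for SCARNA9L.

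Because most snoRNAs are cut from introns, each member was set beside the gene that spans it in RefSeq. Of the 192 members, 178 lay within exactly 1 other gene, 11 within several and 3 within none. Strand was not in the tables used, so a spanning gene may run on the opposite strand. Of these hosts 69 were measured by a probe set of their own, and 4 of them were called higher and 2 lower over all genes (8.70%, beside 2.51% of all genes). After the filter 13 of 67 were higher and 8 lower (31.3%, beside 11.5%). The sequence at the start of the spanning genes was a feature that the choice of members did not use. Of the 97 spanning genes with an annotated start in RefSeq (GRCh38.p14), 29 (29.9%) had at least 1 start with a C followed by 4 bases that were each C or T, read on the gene's own strand at the first base only, beside 5.14% of all 27305 genes. Such a pyrimidine tract at the first base is typical of ribosomal protein and translation factor genes. By this rule RPL3, GAS5, SNHG14 and SNHG17, hosts with 3 or more members each, had no tract at their 1 annotated start. RPL3 began with a C there and missed the rule only at its last base. The starts used in these cells were not measured, so a gene without a tract here may have one at another start. The starts of 4 other such hosts are given from 15 bases before the start through the first 15 transcribed bases, with the tract in capitals where the gene had one. They were picked to show hosts of either kind and do not reflect the share of each.
RPL13A (chr19:49487593-49487622, plus strand): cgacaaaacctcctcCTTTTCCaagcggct
RABGGTB (chr1:75786241-75786270, plus strand): ctgaccctgctctctCCTTTCCCTgttaga
NCL (chr2:231464470-231464499, minus strand): tcagtctttcgcctcagtctcgagctctcg
TBRG4 (chr7:45111683-45111712, minus strand): cgcgccgcgcacctcatggttccggggaca

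The members of these 4 hosts are given beside the tract as a description, with no test. In RPL13A, which has a tract, SNORD33 had 320, 251 and 259 in SALL4-sh cells, against 134, 322 and 479 in Scr-sh cells (log2 fold change 0.00, SE 0.53), and its other 3 members had 0.38 (SNORD32A), 0.18 (SNORD34) and 0.06 (SNORD35A), each at the floor on at least 1 array. In RABGGTB, with a tract, the members ranged from -0.04 to 0.93, and in NCL, without one, from -1.27 for SNORD82 through -0.14 (SE 0.23) for SNORA75, which was at the floor on 3 arrays, to 0.00 for SNORD20, which was at the floor throughout. TBRG4, without a tract, held both SNORA5A and SNORA5C.

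The log2 fold changes of members and hosts were then compared for the 31 pairs in which both were above the floor on all 6 arrays, from 26 hosts. Across these pairs Pearson's r was -0.01 and Spearman's rho 0.06, and 16 of 31 had the same sign. The pairs share the same arrays, some share a host, and pairs are not independent replicates. Among the 66 members above the floor, the median SE (0.41) exceeded the median absolute log2 fold change (0.32). Error of this size can pull a correlation toward 0, so these values do not show whether members follow their hosts. RPL23A, a ribosomal protein gene, fell in SALL4-sh cells, with 585, 513 and 591 against 1279, 1154 and 1171 (log2 fold change -1.09, SE 0.08, limma adjusted p = 0.0159), while SNORD4B in its intron had 22.2, 54.2 and 227 against 16.9, 31 and 44.1 (1.19, SE 1.01, 95% interval -1.50 to 3.88). That interval is wide and includes the value of the host. In contrast, for SNORA80B in ODC1, the rate-limiting enzyme of polyamine synthesis, the host value lay outside the interval of the snoRNA. ODC1 had a log2 fold change of 1.00 (SE 0.14, limma adjusted p = 0.0526 over all genes and 0.00800 after the filter), and SNORA80B had 28.1, 19.7 and 29.2 in SALL4-sh cells against 27.3, 22.01 and 27.4 in Scr-sh cells (-0.01, 95% interval -0.54 to 0.52). NOL11, a factor of ribosomal RNA transcription, had 1.62 (SE 0.44, limma adjusted p = 0.171 over all genes and 0.0161 after the filter), and SNORA38B within it 0.38 (95% interval -0.42 to 1.18). NCAPD2, a condensin subunit, fell by 1.01 on the log2 scale (limma adjusted p = 0.00593), and SCARNA10 within it had 0.08 (95% interval -1.21 to 1.37).

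**Figure D5:**
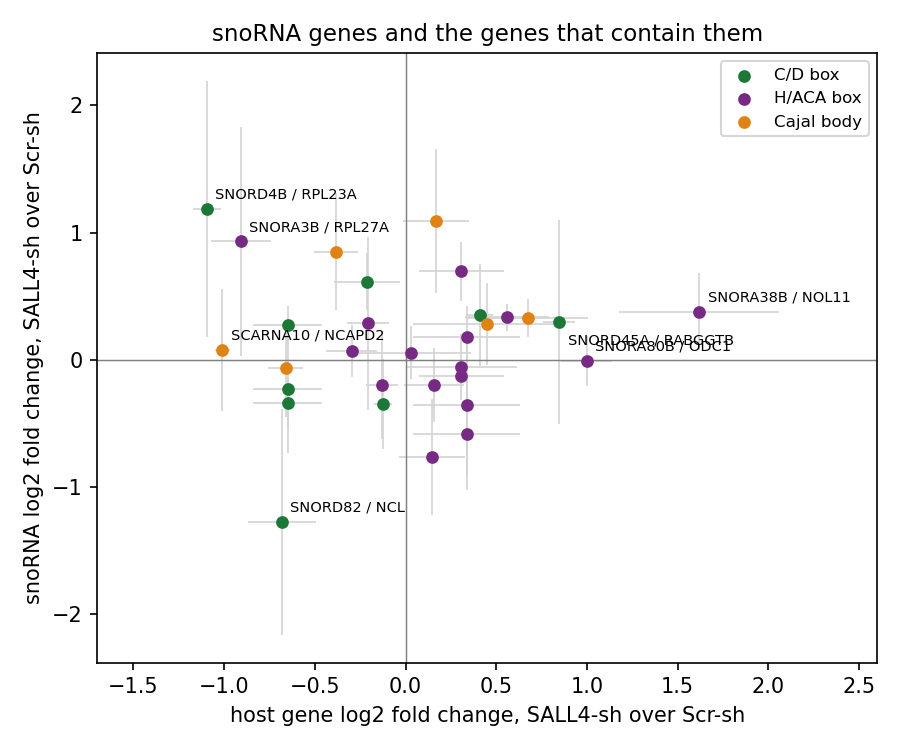
Log2 fold change of 31 snoRNA genes (vertical axis) against that of the gene that spans each (horizontal axis), both SALL4-sh over Scr-sh, for pairs above the floor on all 6 arrays, with standard errors in grey. Pearson's r was -0.01, and the standard errors of many snoRNA genes were wide. RPL23A at -1.09 holds SNORD4B at 1.19, and ODC1 at 1.00 holds SNORA80B at -0.01.

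Other hosts with several members gave values on both sides of 0. In RPL3 the log2 fold changes were 0.27 (SE 0.15) for SNORD83B, -0.23 (SE 0.51) for SNORD43 and -0.34 (SE 0.20) for SNORD83A, while RPL3 itself had -0.65. In SNHG17, a noncoding host, SNORA71C had 0.18 (SE 0.25), SNORA71A -0.36 (SE 0.55) and SNORA71D -0.58 (SE 0.44), and the host had 0.34. In RPL23A, SNORD42A and SNORD4A were each above the floor on 1 array only. No snoRNA of these 3 hosts was called in the fit over all genes, which called 1 of the hosts that were measured, RPL23A.

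The proteins that build, trim and degrade snoRNAs did include genes that changed. Of the 11 assembly factors, 1 was higher in the fit over all genes and none lower, where 2.51% of all genes were called. After the filter 2 were higher and 1 lower, where 11.5% of all genes were called. The same shares apply to the lists below, and no list was tested against them. RUVBL2, an ATPase of the R2TP chaperone complex that assembles both kinds of particle, had 127, 112 and 123 in SALL4-sh cells, against 61.2, 51.7 and 58.3 in Scr-sh cells (log2 fold change 1.08, SE 0.09, limma adjusted p = 0.0217). After the filter its partner ATPase RUVBL1 was lower, with 45.6, 29.6 and 39.3 against 57.9, 87.2 and 95.9 (-1.06, SE 0.27, limma adjusted p = 0.155 over all genes and 0.0215 after the filter). ZNHIT6, which is needed for C/D box assembly, was higher after the filter, with 287, 246 and 267 against 25.2, 101 and 74.9 (2.21, SE 0.58, limma adjusted p = 0.161 over all genes and 0.0123 after the filter), and its log2 fold change was 1.61 without Scr-sh 1.

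Of the C/D box core proteins only 2 were measured. NOP58, which holds the snoRNA in the particle, had 345, 416 and 386 in SALL4-sh cells, against 166, 247 and 151 in Scr-sh cells (1.05, SE 0.22, limma adjusted p = 0.109 over all genes and 0.0137 after the filter). FBL, the methyltransferase fibrillarin, had 1097, 1007 and 1124 against 1102, 1041 and 1020.3 (0.03, SE 0.06), and its groups overlapped. Among the 4 H/ACA core proteins none was called by either fit, with log2 fold changes of 0.18 (SE 0.23) for DKC1, the pseudouridine synthase dyskerin, 0.40 (SE 0.32) for GAR1, 0.43 (SE 0.48) for NHP2 and 0.22 (SE 0.07) for NOP10.

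Among 9 genes of small RNA end processing and decay, 1 fell. EXOSC10, the nuclear exosome nuclease that trims the 3′ ends of snoRNAs, had 97.6, 121 and 107 in SALL4-sh cells, against 301, 281 and 236 in Scr-sh cells (log2 fold change -1.33, SE 0.13, limma adjusted p = 0.0300). DBR1, which opens the intron lariats from which most snoRNAs are released, was higher after the filter, with 21.99, 33.2 and 26.5 against 11.8, 14.8 and 16.3 (0.92, SE 0.21, limma adjusted p = 0.125 over all genes and 0.0206 after the filter). Of 5 Cajal body genes, GEMIN2, a subunit of the SMN complex, was higher, with 28.2, 22.2 and 27.9 against 8, 8 and 10.5 (limma adjusted p = 0.0318), and 2 of its 3 Scr-sh arrays were at the floor. COIL, the scaffold of Cajal bodies, had 104, 46.4 and 80.1 against 60.2, 141 and 134 (-0.52, SE 0.50).

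Of the noncoding hosts listed, 4 were measured by a probe set of their own, and none was called over all genes. EPB41L4A-AS1, the host of SNORA13, was lower after the filter, with 17.7, 22.3 and 15.9 in SALL4-sh cells, against 31.3, 60.4 and 43.3 in Scr-sh cells (-1.23, SE 0.29, limma adjusted p = 0.135 over all genes and 0.0143 after the filter). ZFAS1, which holds the SNORD12 genes, had 212, 178 and 208 against 240, 359 and 231 with no overlap (-0.45, SE 0.21). Among 11 other small structured RNAs none was called by either fit. TERC, the telomerase RNA, which carries an H/ACA domain, had 42.3, 37.7 and 34.7 against 29.6, 48.3 and 54.1 (-0.16, SE 0.27).

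A further 63 probe sets carried a snoRNA symbol together with another symbol and were outside the members. None passed an adjusted p of 0.05 in a limma fit over all 32321 probe sets, where 0.962% did, and 6 had an unadjusted p under 0.05, as 13.7% of all probe sets did. Of the 52 that were not at the floor throughout, the median log2 fold change was -0.03, and the groups did not overlap for 7 higher and 3 lower, beside 25.3% of all probe sets that were not at the floor throughout. The SNORA59A and SNORA59B probe set had 19.6, 19.5 and 13.9 in SALL4-sh cells, against 8.27, 11.01 and 9.97 in Scr-sh cells (0.85, SE 0.20, limma adjusted p = 0.170). The SNHG1 probe sets, which cover a row of C/D box snoRNAs in a noncoding host, overlapped between the groups in all 6 cases, with log2 fold changes from -1.14 for SNORD26 to -0.05 for SNORD29.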

How the data were processed

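Total RNA of H661 cells, extracted with Trizol per the labels and with a column kit per the study's methods, was hybridised to Affymetrix whole-transcript arrays, 3 per group. The authors deposited linear normalized intensity values, and the submitters' processing notes name RMA with no version. Values stop at 8, which RMA does not do on its own, and the sources used here do not say how this floor was set. Of 32321 probe sets, 19158 had 1 symbol in the platform annotation, 1388 several and 11775 none. The brightest probe set per symbol was kept (18404 genes), and intensities were taken to log2. Each gene was tested with limma 3.58.1 in R 4.3.3 (lmFit, eBayes, no covariate), with Benjamini-Hochberg adjustment over all genes at 0.05, after a test on simulated data. The study names a one-way ANOVA of the arrays, which was run as an alternative. Scan dates were not analysed here. Arrays correlated at 0.969 to 0.980 within groups and 0.955 to 0.965 between groups, and no pair of arrays was identical. The number of arrays limits the precision. Members named were those called, the 8 highest and lowest without overlap and above the floor on 4 or more arrays, snoRNAs of precursor cleavage, the brightest of each family, and up to 4 per host with 3 or more members, of which 1 host is not reported here. Spanning genes and sequences came from RefSeq (GRCh38.p14). The members and the gene lists were chosen with earlier results of these data known.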

Additional observations from a re-analysis of the deposited data

How the results depend on the processing

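No snoRNA gene was called over all genes, with all 6 arrays or with any 1 left out, nor after median centring, quantile or cyclic loess normalization, trend and robust eBayes, array weights, one-way ANOVA, the mean of probe sets, or leaving out genes at the floor throughout. The 25th percentile filter called 2 C/D box genes as higher, of which SNORD45B was at the floor on all Scr-sh arrays. With that filter and 1 array left out, which was added after seeing the data, the count of C/D box genes was 0 to 4 higher and 0 to 2 lower, of H/ACA box genes 0 to 1 lower, and of Cajal body genes 0 to 1. Those fits called 5.11% to 14.1% of all genes. Family medians moved by less than the spread of single genes between arrays under every alternative run, which is a lax measure for a median over many genes. Medians over all members, many of them at the floor, could hardly move. The median of the C/D box genes above the floor turned from 0.26 to -0.08 without Scr-sh 1.

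Correlations of the arrays' deviations from their group means did not settle whether the replicate numbers pair the arrays. Same-numbered arrays correlated at 0.15, 0.12 and 0.00, and arrays of unlike number at -0.17 to 0.044. With the replicate number as a block, no snoRNA gene was called over all genes and the calls over all genes dropped to 10 from 462. With block and filter, also added after seeing the data, 5 C/D box genes were higher, 1 H/ACA box gene was lower and 1 Cajal body gene was higher. These were 7 of 113 members, beside 12.4% of all genes (1706 genes, against 1585 with the filter and no block).

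Of 54 snoRNA genes named by the rule or given with values, 34 did not turn to the opposite sign under any alternative. These include SNORD38A, SNORD4A, SNORD42A and SNORD45C, each at the floor on 5 of the 6 arrays. Their log2 fold change became 0 when the remaining array was left out. SNORD33 turned to -0.0051 with median centring, -0.064 with quantile, -0.098 with cyclic loess and -0.13 with array weights. Array weights turned SCARNA10 to -0.039, SNORD35A to -0.033, SNORD43 to 0.015, SNORD45A to -0.013, SNORD46 to -0.041 and SNORD55 to -0.020. Leaving out single arrays gave log2 fold changes from -0.076 to 0.10 for SNORA5B, from -0.31 to 0.064 for SNORA62, from -0.71 to 0.17 for SNORA71A, from -0.044 to 0.36 for SNORA71C, from -0.30 to 0.42 for SNORD116-14, from -0.029 to 1.02 for SNORD13, from -0.72 to 0.40 for SNORD14E and from -0.52 to 0.40 for SNORD33. It ranged from -0.14 to 0.17 for SNORD35A, from -0.47 to 0.19 for SNORD43, from -0.48 to 0.44 for SNORD44, from -0.38 to 1.00 for SNORD45A, from -0.19 to 0.65 for SNORD46 and from -0.52 to 0.48 for SNORD55. It also ranged from -0.42 to 0.34 for SCARNA10, from -0.26 to 0.078 for SNORA75, from -0.11 to 0.17 for SNORA80B, from -0.14 to 0.84 for SNORD116-6, from -0.33 to 0.69 for SNORD74 and from -1.44 to 0.12 for SNORD75. The cause was not tested.

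These data hold 3 arrays a group, and 68 of 192 members were at the floor on all of them.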
